A study of Mus musculus with 4 samples.

Results

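Nuclear receptor genes were followed across 4 chromatin accessibility libraries of cultured mouse myeloid cells. They were chosen by name: 22 protein-coding genes carry a systematic nuclear receptor symbol (Nr followed by a digit, a letter and digits, with Nr4a1, Nr4a2 and Nr4a3 set aside), and 18 more receptors with older symbols were listed, giving 40 of 21887 protein-coding genes. The rule uses no measured value. The locus of a gene was its body with 10 kb on either side, and an accessible region is a stretch covered by called intervals of 1 or more libraries that share at least 1 base. The 40 loci held 358 of 120423 such regions.

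Each library was an Omni-ATAC-seq library, made with an enzyme that cuts accessible DNA and leaves sequencing adapters there, from bone marrow-derived cells of the C57BL/6J strain. The groups were Cxcr3-/- monocytes, WT (wild-type) monocytes, Cxcr3-/- CMP/GMP and WT CMP/GMP, with 1 library each, where CMP/GMP stands for common myeloid and granulocyte-monocyte progenitors as one group. Cxcr3 encodes a chemokine receptor, and the study asks what it does in macrophages of liver tumours. Hepatocellular carcinoma is the disease state in the labels of every group, and the study's mice received diethylnitrosamine and tetrachloromethane, whereas the design text says that the cells for these libraries were grown in vitro. The sources used here do not say which part of Cxcr3 was deleted, how the cells were cultured or how many mice gave them.

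The deposited lists held 78244 intervals in Cxcr3-/- monocytes, 98257 in WT monocytes, 80171 in Cxcr3-/- CMP/GMP and 69521 in WT CMP/GMP. An interval's level is given as its summit pileup, the number of tags stacked at its highest point, recovered from the deposited fold and p-value. The median was 21 tags in every library but Cxcr3-/- CMP/GMP, where it was 29, and background densities lay between 95.6 and 194 tags per 10 kb. For ratios, pileups were divided by library factors of 0.879 in Cxcr3-/- monocytes, 1.11 in WT monocytes, 1.29 in Cxcr3-/- CMP/GMP and 0.791 in WT CMP/GMP. Tags are printed unscaled, and ratios and their 95% intervals are scaled. Since each group is a single library, differences lack a replicate check, no p-values are given, and the intervals cover counting error only. In a bulk library fewer cells with an open site and less opening per cell cannot be told apart. The labels were checked against marker lists: 10 monocyte and macrophage genes summed to 2224 and 2642 scaled tags in Cxcr3-/- and WT monocytes, against 1930 and 1693 in Cxcr3-/- and WT CMP/GMP, and 10 CMP and GMP genes summed to 1093 and 1118 against 2438 and 2229. All 10 genes of each list had a region in every library. The monocyte and macrophage sums covered 51 and 77 called regions in Cxcr3-/- and WT monocytes, against 52 and 40 in Cxcr3-/- and WT CMP/GMP. The CMP and GMP sums covered 41 and 53 regions against 65 and 57. Such sums run over called regions only, and the list lengths differ between libraries. Over the 4 libraries the sums ranged from 320 to 499 scaled tags for 7 lymphoid genes, from 381 to 505 for 5 erythroid and megakaryocyte genes, and from 492 to 609 for 5 stromal and endothelial genes, and for 4 hepatocyte genes the highest was 55.8. The part of mixed cell states in any result below was not tested.

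Nuclear receptors are transcription factors, most of which bind DNA through zinc fingers. Many of them switch between repression and activation when a small fat-soluble ligand enters their ligand-binding domain. Such a ligand can be a steroid, a retinoid, an oxysterol or a fatty acid. Retinoid X receptors serve as the common partner of retinoic acid, vitamin D, thyroid hormone, peroxisome proliferator-activated and liver X receptors, and the steroid receptors bind mostly as pairs of themselves. In myeloid cells retinoic acid receptor alpha is known for its part in granulocyte differentiation, and PPAR, LXR and RXR proteins are known for governing lipid handling and inflammatory genes in macrophages.

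Promoter windows were taken from RefSeq (GRCm38.p6, the build called mm10), each with 250 bases before and 50 bases from the annotated start, written 5′ to 3′ on the strand of the gene. Of the 40 genes 37 matched, with 53 windows. Those shown belong to the starts on which the comparisons turn: Rara and Rarg, with more tags in monocytes; Ppara, with fewer; the first and the internal start of Pparg; Nr2c2, the strongest start; and Rxra, a window with no called interval. Capitals mark every match, on either strand, to AGGTCA (the nuclear receptor half-site), GAGGAA (the core bound by PU.1 and other ETS factors), TTGCNNAA (C/EBP), CACGTG (E-box), GGGCGG (GC box), TGANTCA (AP-1) or CCAAT, and no marked match shares a base with another.
Rara, chr11:98937446-98937745, plus strand: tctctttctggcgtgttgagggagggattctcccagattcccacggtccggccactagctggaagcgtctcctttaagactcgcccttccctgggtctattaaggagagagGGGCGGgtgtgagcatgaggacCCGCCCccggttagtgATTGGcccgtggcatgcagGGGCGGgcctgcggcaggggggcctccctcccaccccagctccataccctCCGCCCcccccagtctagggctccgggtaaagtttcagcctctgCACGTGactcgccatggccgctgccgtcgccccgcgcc
Rarg, chr15:102246451-102246750, minus strand: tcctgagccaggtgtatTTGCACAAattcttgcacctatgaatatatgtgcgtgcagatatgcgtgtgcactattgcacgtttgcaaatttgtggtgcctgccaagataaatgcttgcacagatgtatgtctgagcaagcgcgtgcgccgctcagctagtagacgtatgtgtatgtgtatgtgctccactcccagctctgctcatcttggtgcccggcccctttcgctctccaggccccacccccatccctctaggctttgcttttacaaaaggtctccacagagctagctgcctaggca
Ppara, chr15:85735526-85735825, plus strand: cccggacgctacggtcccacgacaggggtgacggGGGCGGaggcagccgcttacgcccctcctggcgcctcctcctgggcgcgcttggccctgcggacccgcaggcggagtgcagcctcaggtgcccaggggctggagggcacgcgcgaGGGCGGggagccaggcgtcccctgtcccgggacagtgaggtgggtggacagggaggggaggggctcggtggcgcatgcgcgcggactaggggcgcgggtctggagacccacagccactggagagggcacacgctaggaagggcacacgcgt
Pparg, first start, chr6:115360894-115361193, plus strand: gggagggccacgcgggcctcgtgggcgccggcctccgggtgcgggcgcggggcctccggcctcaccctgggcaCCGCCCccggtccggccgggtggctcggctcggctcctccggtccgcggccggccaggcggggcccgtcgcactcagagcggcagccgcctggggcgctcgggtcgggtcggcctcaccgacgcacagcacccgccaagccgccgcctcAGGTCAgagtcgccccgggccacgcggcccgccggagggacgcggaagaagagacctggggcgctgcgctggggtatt
Pparg, internal start, chr6:115421816-115422115, plus strand: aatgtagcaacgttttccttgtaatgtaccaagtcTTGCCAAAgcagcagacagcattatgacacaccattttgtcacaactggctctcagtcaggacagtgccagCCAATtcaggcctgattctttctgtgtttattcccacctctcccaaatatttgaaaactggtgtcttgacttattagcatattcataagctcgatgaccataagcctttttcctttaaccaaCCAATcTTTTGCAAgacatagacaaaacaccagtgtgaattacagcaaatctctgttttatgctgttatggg
Nr2c2, chr6:92092183-92092482, plus strand: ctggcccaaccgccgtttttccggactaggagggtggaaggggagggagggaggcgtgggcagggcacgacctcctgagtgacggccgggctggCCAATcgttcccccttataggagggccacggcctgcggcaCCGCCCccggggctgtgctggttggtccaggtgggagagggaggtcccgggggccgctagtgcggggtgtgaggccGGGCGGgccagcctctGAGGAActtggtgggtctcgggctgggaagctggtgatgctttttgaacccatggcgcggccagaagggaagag
Rxra, chr2:27676951-27677250, plus strand: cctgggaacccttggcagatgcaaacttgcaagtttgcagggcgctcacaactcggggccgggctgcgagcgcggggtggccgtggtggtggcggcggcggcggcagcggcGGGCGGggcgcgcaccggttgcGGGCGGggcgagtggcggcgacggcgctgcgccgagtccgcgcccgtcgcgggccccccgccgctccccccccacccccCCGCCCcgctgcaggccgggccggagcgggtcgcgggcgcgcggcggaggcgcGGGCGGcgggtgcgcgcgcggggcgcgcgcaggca

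The Rara window holds an E-box at base 263, 4 GC boxes and 1 CCAAT box, and the internal Pparg window 2 C/EBP matches and 2 CCAAT boxes, at base counts from 1 at the 5′ end of the window. The only AGGTCA among the printed windows stands at base 223 of the first Pparg window. Over all 53 windows AGGTCA was present in 22.6%, against 16.3% of all 32817 promoter windows of the same length. The other shares, nuclear receptor windows first, were 24.5% against 28.3% for GAGGAA, 20.8% against 10.8% for TTGCNNAA, 11.3% against 7.15% for CACGTG, 41.5% against 35.6% for GGGCGG, 3.77% against 7.81% for TGANTCA and 35.8% against 37.4% for CCAAT. Windows of nearby starts can overlap, so the E-box and GC boxes of Rara count in both of its overlapping windows. A match describes letters in these windows and is not a mapped binding site.

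Most receptor genes had an open start in every library. Within 1 kb of an annotated start, 27 of the 40 had an interval in all 4 libraries, 5 in 1 to 3 libraries and 8 in none. These shares are 67.5% in all 4 and 20% in none, against a background of 54.1% and 35.7% of all protein-coding genes by the same rule. All 6 retinoic acid, vitamin D and thyroid hormone receptors were among the 27, as were 5 of 6 steroid and estrogen-related receptors and 5 of 9 lipid, bile acid and xenobiotic sensors. The 8 without a called start were Nr1h4 (FXR, the bile acid receptor), Nr1h5 (FXR beta), Nr1i3 (CAR, a xenobiotic sensor of liver), Nr2e1 (Tlx, of neural stem cells), Nr2e3 (of photoreceptors), Nr2f2 (COUP-TFII, of veins and stroma), Nr0b1 (Dax1, of adrenal and gonad) and Rora. Nr1h5 and Nr0b1 had no interval anywhere in their loci, which says that none was called at this depth.

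Of the 53 promoter windows 27 (50.9%) were called in all 4 libraries, against 36.7% of all promoter windows, and 23 (43.4%) in none, against 56.1%. The windows called in all 4 libraries had a median GC content of 65.7%, and those called in none 53.7%. Over all promoter windows these medians were 61.7% and 47.7%. The most GC-rich of all 53, the first Rxra window with a GC content of 83% and 55 CpG dinucleotides, was among those called in none, and the only interval within 1 kb of it was chromosome 2, 27677602 to 27677853, 12 tags in WT monocytes. Thra, Nr3c1 and Nr5a1 had no window in the table, and either end of the gene was taken as a start.

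**Figure D1:**
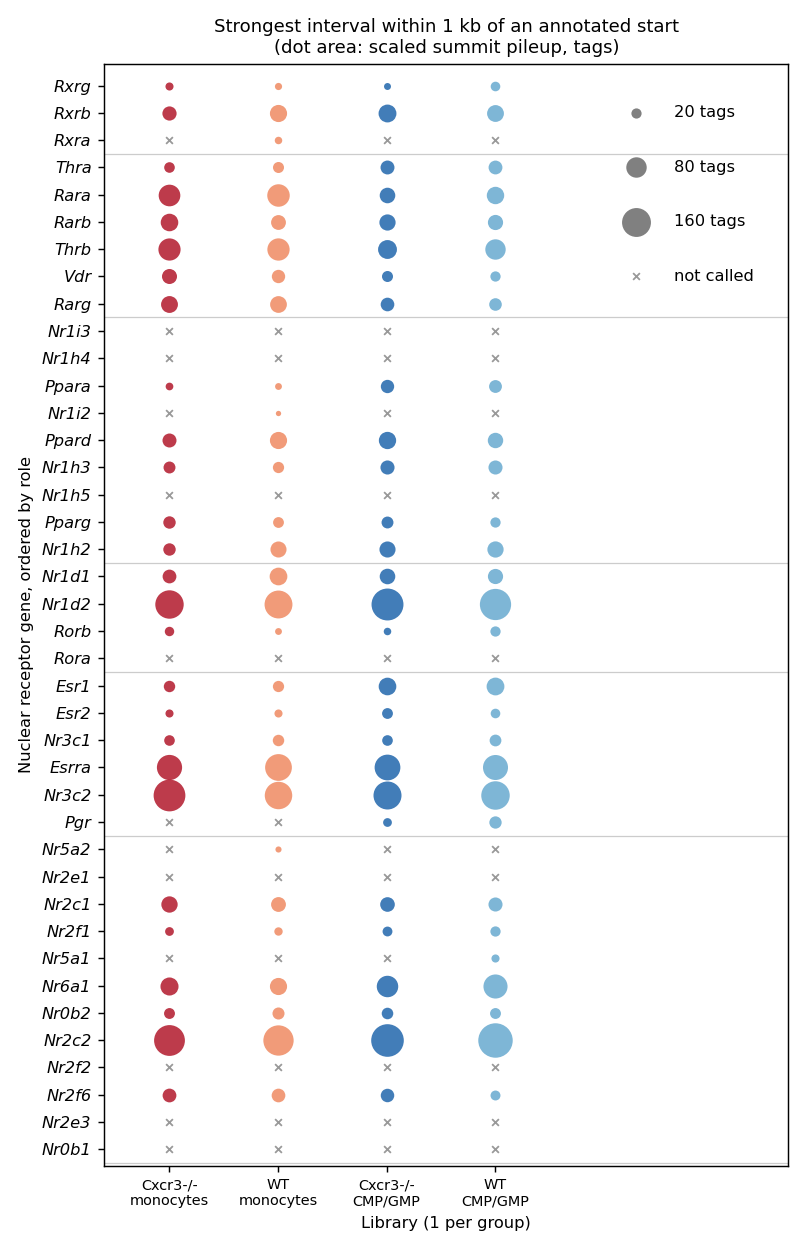
Strongest interval within 1 kb of an annotated start for each of the 40 nuclear receptor genes (rows, ordered by role) in each of the 4 libraries (columns). Dot area is the scaled summit pileup in tags, and a cross marks a start with no called interval; 27 rows carry a dot in all 4 columns and 8 rows carry none.

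The receptor starts with the highest pileups were those of Nr2c2, Nr1d2, Nr3c2 and Esrra. Nr2c2 encodes the orphan receptor TR4, and its start (chromosome 6, 92091736 to 92092750) had 160 and 196 tags in Cxcr3-/- and WT monocytes, against 263 and 180 in Cxcr3-/- and WT CMP/GMP. Its log2 ratio of monocytes over CMP/GMP was −0.16 (−0.46 to 0.12) in Cxcr3-/- and −0.37 (−0.67 to −0.07) in WT. Nr1d2, the Rev-erb beta gene, had 136 and 166 tags in Cxcr3-/- and WT monocytes, against 252 and 148 in Cxcr3-/- and WT CMP/GMP at its start, with ratios of −0.34 (−0.65 to −0.03) and −0.33 (−0.66 to 0.00). The mineralocorticoid receptor gene Nr3c2 had 170 and 161 tags in Cxcr3-/- and WT monocytes, against 194 and 123 in Cxcr3-/- and WT CMP/GMP at its start, and the ratios were 0.36 (0.06 to 0.67) and −0.10 (−0.45 to 0.25). Esrra, which encodes an estrogen-related receptor of mitochondrial metabolism, had 107 and 153 tags in Cxcr3-/- and WT monocytes, against 164 and 95 in Cxcr3-/- and WT CMP/GMP there, with ratios of −0.06 (−0.43 to 0.30) and 0.19 (−0.18 to 0.58). All 4 starts were within 2-fold between the cell types in both genotypes as reported. When libraries were scaled by background tags instead, the WT ratios became 0.62 at Nr2c2, 0.66 at Nr1d2, 0.88 at Nr3c2 and 1.18, past 2-fold, at Esrra. The other regions among the 10 with the highest mean scaled pileup lay outside a receptor start and mostly at a neighbouring gene. A region beside Nr1i3 touches the bodies of both Apoa2 and Tomm40l and lies within 1 kb of the Apoa2 start. This region at Apoa2 had 106 and 167 tags in Cxcr3-/- and WT monocytes, against 263 and 128 in Cxcr3-/- and WT CMP/GMP. At Gas2l3, beside Nr1h4, there were 138 and 154 tags in Cxcr3-/- and WT monocytes, against 141 and 82 in Cxcr3-/- and WT CMP/GMP. At Pold1, beside Nr1h2, there were 86 and 108 tags in Cxcr3-/- and WT monocytes, against 226 and 102 in Cxcr3-/- and WT CMP/GMP. Apoa2 is an apolipoprotein gene, Gas2l3 a cytoskeletal gene and Pold1 a DNA polymerase gene. At Ocel1, beside Nr2f6, the region had 101 and 134 tags in Cxcr3-/- and WT monocytes, against 154 and 75 in Cxcr3-/- and WT CMP/GMP. In Nr1d1, which lies next to Thra, a body region had 87 and 144 tags in Cxcr3-/- and WT monocytes, against 124 and 75 in Cxcr3-/- and WT CMP/GMP. In Cdc6, a replication gene beside Rara, the region had 72 and 100 tags in Cxcr3-/- and WT monocytes, against 150 and 76 in Cxcr3-/- and WT CMP/GMP. Of the 358 regions 48 touched the body of another protein-coding gene and 29 lay within 1 kb of another gene's start, so the level of such a region does not belong to the receptor alone.

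Monocytes were first set against CMP/GMP within each genotype. A ratio was taken where both libraries had a call and the mean pileup was at least 30 tags. In Cxcr3-/- 79 receptor regions had a ratio: 8 were past 2-fold higher in monocytes and 9 past 2-fold lower, against a background over all regions of 10.9% higher and 9.78% lower. In WT 61 had a ratio: 8 were past 2-fold higher and 5 lower, against a background of 10.8% and 6.67%. These are shares of 10.1% and 11.4% in Cxcr3-/- and of 13.1% and 8.20% in WT. Of the 61 regions measured in both genotypes 5 were past 2-fold higher in both (background 6.72%) and 2 lower in both (background 3.69%). The receptor shares lay near the background in each case. The median receptor ratio was −0.27 in Cxcr3-/- and 0.10 in WT, beside −0.10 and 0.03 over all regions.

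By role, the retinoic acid, vitamin D and thyroid hormone receptors had 3 regions past 2-fold higher and 4 lower of 24 in Cxcr3-/-, and 3 higher and 1 lower of 17 in WT. The lipid, bile acid and xenobiotic sensors had 3 and 0 of 22 in Cxcr3-/-, and 2 and 2 of 17 in WT. The steroid and estrogen-related receptors had 1 and 2 of 10 in Cxcr3-/-, and 1 and 1 of 9 in WT. The orphan receptors had 0 and 2 of 14 in Cxcr3-/-, and 0 and 1 of 10 in WT. Rev-erb and Ror genes had 1 and 0 of 7 in Cxcr3-/-, and 2 and 0 of 7 in WT, and retinoid X receptor genes 0 and 1 of 4 in Cxcr3-/- and 0 and 0 of 3 in WT. A region shared by receptors of different roles counts under each.

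By position, all 5 regions past 2-fold higher in both genotypes lay in gene bodies away from a start, among 27 body regions measured, where the background of regions in the body of any protein-coding gene was 10.6%. None of 17 start regions was past 2-fold higher in both, against a background of 1.2% of regions at any start, and 1, at Esr1, was past 2-fold lower in both, against 1.72%. With scaling by background tags 7 body and 2 start regions were past 2-fold higher in both, beside 28.3% and 5.62% of all such regions. The 2 starts were those of Rara (1.39 in Cxcr3-/- and 1.73 in WT) and Rarg (1.37 and 1.74). The Esr1 region, which lies just inside the start, then stood at −0.81 and −0.34, short of 2-fold. Start ratios ranged from −1.25 to 0.95 in Cxcr3-/- and from −1.32 to 0.83 in WT.

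**Figure D2:**
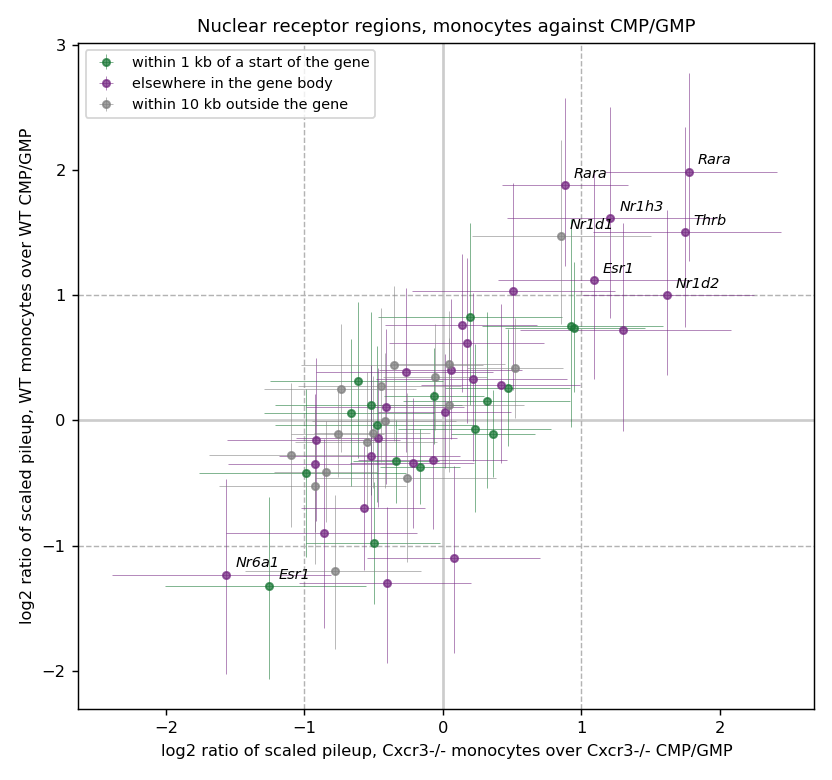
Log2 ratio of scaled summit pileup, monocytes over CMP/GMP, in Cxcr3-/- (x axis) and in WT (y axis) for the 61 nuclear receptor regions measured in both genotypes; bars are 95% exact binomial intervals for counting error, colours give the position in the gene and dashed lines mark 2-fold. Regions of Rara, Thrb, Nr1h3, Esr1 and Nr1d2 lie past 2-fold at the upper right, and regions of Nr6a1 and Esr1 past 2-fold at the lower left.

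Among the retinoid X receptors, the common partners, Rxra carried sites called only in monocytes. Called only in monocytes means here that the region was among the 69521 strongest intervals of both monocyte libraries and absent from both full CMP/GMP lists, and the reverse for CMP/GMP. At chromosome 2, 27687942 to 27688343, about 11 kb into the gene, there were 46 and 62 tags in Cxcr3-/- and WT monocytes, and no interval was called in either CMP/GMP library. The mean scaled level of the monocyte libraries would give 69.6 tags in Cxcr3-/- CMP/GMP and 42.7 in WT CMP/GMP. The lowest 5% of called intervals there have at most 13 and 10 tags. A level above that mark does not ensure a call. The Nr6a1 region at chromosome 2, 38826342 to 38826544 had 44 tags in WT monocytes. Cxcr3-/- monocytes, with 34.7 tags at an equal level, had no call there. Rxra held 3 more monocyte-only regions with 10 to 24 tags and 1 called only in CMP/GMP (20 and 12 tags in Cxcr3-/- and WT CMP/GMP), among 22 regions. Its strongest region, chromosome 2, 27740057 to 27740717, was called in all 4 libraries with 56 and 80 tags in Cxcr3-/- and WT monocytes, against 79 and 43 in Cxcr3-/- and WT CMP/GMP. Its ratios of 0.06 (−0.46 to 0.57) in Cxcr3-/- and 0.40 (−0.15 to 0.97) in WT include 0. So within one gene a site without a CMP/GMP call stood beside a stronger one called in all 4 libraries.

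Rxrb, a broadly expressed partner receptor in the major histocompatibility region, had a start that lies within 1 kb of the start of Slc39a7. There were 34 and 63 tags in Cxcr3-/- and WT monocytes, against 79 and 43 in Cxcr3-/- and WT CMP/GMP. A region at the neighbour gene H2-Ke6, chromosome 17, 34027634 to 34028222, had 35 and 58 tags in Cxcr3-/- and WT monocytes, against 110 and 50 in Cxcr3-/- and WT CMP/GMP. Its ratio was −1.10 (−1.69 to −0.54) in Cxcr3-/- and −0.28 (−0.85 to 0.30) in WT, the WT ratio turning to 0.71 when libraries were scaled by background tags. Rxrg, the member of muscle and nervous tissue, had 11 to 14 tags at its start in the 4 libraries. One Rxrg body region, chromosome 1, 167637047 to 167637461, had 9 and 10 tags in Cxcr3-/- and WT monocytes, against 33 and 40 in Cxcr3-/- and WT CMP/GMP. Rxrg also had 1 flanking region called only in monocytes (11 and 12 tags in Cxcr3-/- and WT monocytes) and 1 body region called only in CMP/GMP (22 and 20 tags in Cxcr3-/- and WT CMP/GMP).

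Rara, which encodes retinoic acid receptor alpha, held the largest cell-type ratio seen in both genotypes. The body region chromosome 11, 98933107 to 98933548, upstream of the start printed above, had 77 and 106 tags in Cxcr3-/- and WT monocytes, against 33 and 19 in Cxcr3-/- and WT CMP/GMP. Its log2 ratio was 1.77 (1.17 to 2.41) in Cxcr3-/- and 1.99 (1.27 to 2.77) in WT. In each genotype the monocyte library lay above the CMP/GMP library by more than the counting error. Further into the gene, chromosome 11, 98959482 to 98959979 had 94 and 124 tags in Cxcr3-/- and WT monocytes, against 75 and 24 in Cxcr3-/- and WT CMP/GMP. The ratio was 0.88 (0.43 to 1.34) in Cxcr3-/- and 1.88 (1.24 to 2.57) in WT. The start itself (chromosome 11, 98937491 to 98937776), which spans the E-box of the printed window, had 79 and 108 tags in Cxcr3-/- and WT monocytes, against 60 and 46 in Cxcr3-/- and WT CMP/GMP. Its ratios were 0.95 (0.45 to 1.46) and 0.74 (0.23 to 1.27), above 0 and short of 2-fold in both genotypes as reported, and past 2-fold in both (1.39 and 1.73) with scaling by background tags.

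Not every site of Rara went the same way. A body region at chromosome 11, 98952686 to 98953141 had 21 and 21 tags in Cxcr3-/- and WT monocytes, against 79 and 36 in Cxcr3-/- and WT CMP/GMP, with a ratio of −1.36 (−2.13 to −0.65) in Cxcr3-/- and a WT mean pileup under the minimum for a ratio. Regions at chromosome 11, 98941709 to 98942563 and chromosome 11, 98943451 to 98943643 had ratios whose intervals include 0 in both genotypes. No region of Rara, of 23, was called in one cell type only under the rule used here.

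Rarg, the gamma receptor of skin and haematopoietic stem cells, had 48 and 45 tags in Cxcr3-/- and WT monocytes, against 37 and 19 in Cxcr3-/- and WT CMP/GMP at the start printed above. The ratios were 0.93 (0.28 to 1.59) in Cxcr3-/- and 0.75 (−0.05 to 1.61) in WT. A second interval of that start, chromosome 15, 102246891 to 102247500, had 36 and 60 tags in Cxcr3-/- and WT monocytes, against 46 and 24 in Cxcr3-/- and WT CMP/GMP. The body region chromosome 15, 102243331 to 102243798 was the strongest of the locus, with 64 and 105 tags in Cxcr3-/- and WT monocytes, against 93 and 71 in Cxcr3-/- and WT CMP/GMP. Its ratios were 0.01 (−0.47 to 0.49) and 0.07 (−0.38 to 0.53), with both intervals including 0.

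Rarb, the beta receptor, is itself a known retinoic acid target, and its gene of 651493 bp held 26 regions with its flanks. Its start had 52 and 47 tags in Cxcr3-/- and WT monocytes, against 65 and 35 in Cxcr3-/- and WT CMP/GMP, with ratios of 0.23 in Cxcr3-/- and −0.07 in WT. It held 5 regions called only in monocytes, more than any other receptor gene, of which the strongest was chromosome 14, 16433254 to 16433624 with 45 and 47 tags in Cxcr3-/- and WT monocytes. The other 4 had 14 to 28 tags. In CMP/GMP only, 2 further Rarb regions were called, with 26 and 25 tags in Cxcr3-/- and WT CMP/GMP and 14 and 12 tags in Cxcr3-/- and WT CMP/GMP. Measured ratios also ran both ways. The body region chromosome 14, 17055769 to 17056070 had 42 and 44 tags in Cxcr3-/- and WT monocytes, against 25 and 19 in Cxcr3-/- and WT CMP/GMP. Its ratios were 1.30 (0.55 to 2.08) in Cxcr3-/- and 0.72 (−0.09 to 1.58) in WT. The region chromosome 14, 17081930 to 17082458, in contrast, had 11 and 16 tags in Cxcr3-/- and WT monocytes, against 67 and 42 in Cxcr3-/- and WT CMP/GMP. Its Cxcr3-/- ratio of −2.05 (−3.12 to −1.12) was the lowest of all receptor regions. The region starting at 16559352 had 16 and 17 tags in Cxcr3-/- and WT monocytes, against 59 and 41 in Cxcr3-/- and WT CMP/GMP. It was past 2-fold lower in monocytes in Cxcr3-/-, and short of 2-fold at −0.89 with scaling by background tags. The region starting at 16563954 had 39 and 27 tags in Cxcr3-/- and WT monocytes, against 54 and 41 in Cxcr3-/- and WT CMP/GMP. Its Cxcr3-/- ratio of 0.08 (−0.55 to 0.70) includes 0. The WT ratio was −1.10 (−1.85 to −0.36). It was short of 2-fold at −0.98 with scaling by the median of ratios and at −0.11 with scaling by background tags.

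Thrb and Thra encode the thyroid hormone receptors. In Thrb, chromosome 14, 17878502 to 17878798 had 64 and 72 tags in Cxcr3-/- and WT monocytes, against 28 and 18 in Cxcr3-/- and WT CMP/GMP. The ratios were 1.75 (1.08 to 2.44) in Cxcr3-/- and 1.51 (0.75 to 2.34) in WT. Its neighbour about 1 kb away, chromosome 14, 17879548 to 17879931, had 51 and 60 tags in Cxcr3-/- and WT monocytes, against 56 and 35 in Cxcr3-/- and WT CMP/GMP. The ratios there were 0.42 (−0.16 to 0.99) and 0.28 (−0.34 to 0.93). The Cxcr3-/- intervals of these neighbouring sites do not overlap, and the WT intervals do. Thrb also had 2 monocyte-only regions (45 and 55 tags in Cxcr3-/- and WT monocytes, and 42 and 38 tags in Cxcr3-/- and WT monocytes) and 3 CMP/GMP-only regions with 12 to 27 tags. Thra had 1 monocyte-only body region (24 and 33 tags in Cxcr3-/- and WT monocytes). Within 1 kb of a gene end, Thra had 19 and 26 tags in Cxcr3-/- and WT monocytes, against 48 and 29 in Cxcr3-/- and WT CMP/GMP.

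Vdr encodes the vitamin D receptor, which is well known in monocytes and macrophages. Its start carried 2 intervals, with 38 and 34 tags in Cxcr3-/- and WT monocytes, against 18 and 14 in Cxcr3-/- and WT CMP/GMP in one. The other had 24 and 38 tags in Cxcr3-/- and WT monocytes, against 30 and 16 in Cxcr3-/- and WT CMP/GMP. A monocyte-only body region, chromosome 15, 97880509 to 97880904, had 39 and 36 tags in Cxcr3-/- and WT monocytes and lies within 1 kb of the start of Gm52171. The region chromosome 15, 97868995 to 97869325 had 15 and 20 tags in Cxcr3-/- and WT monocytes, against 52 and 20 in Cxcr3-/- and WT CMP/GMP, with a Cxcr3-/- ratio of −1.24 (−2.18 to −0.39). Vdr therefore held a site called only in monocytes and a site past 2-fold lower in Cxcr3-/- monocytes than in Cxcr3-/- CMP/GMP as reported, which stood at −0.80, short of 2-fold, with scaling by background tags.

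**Figure D3:**
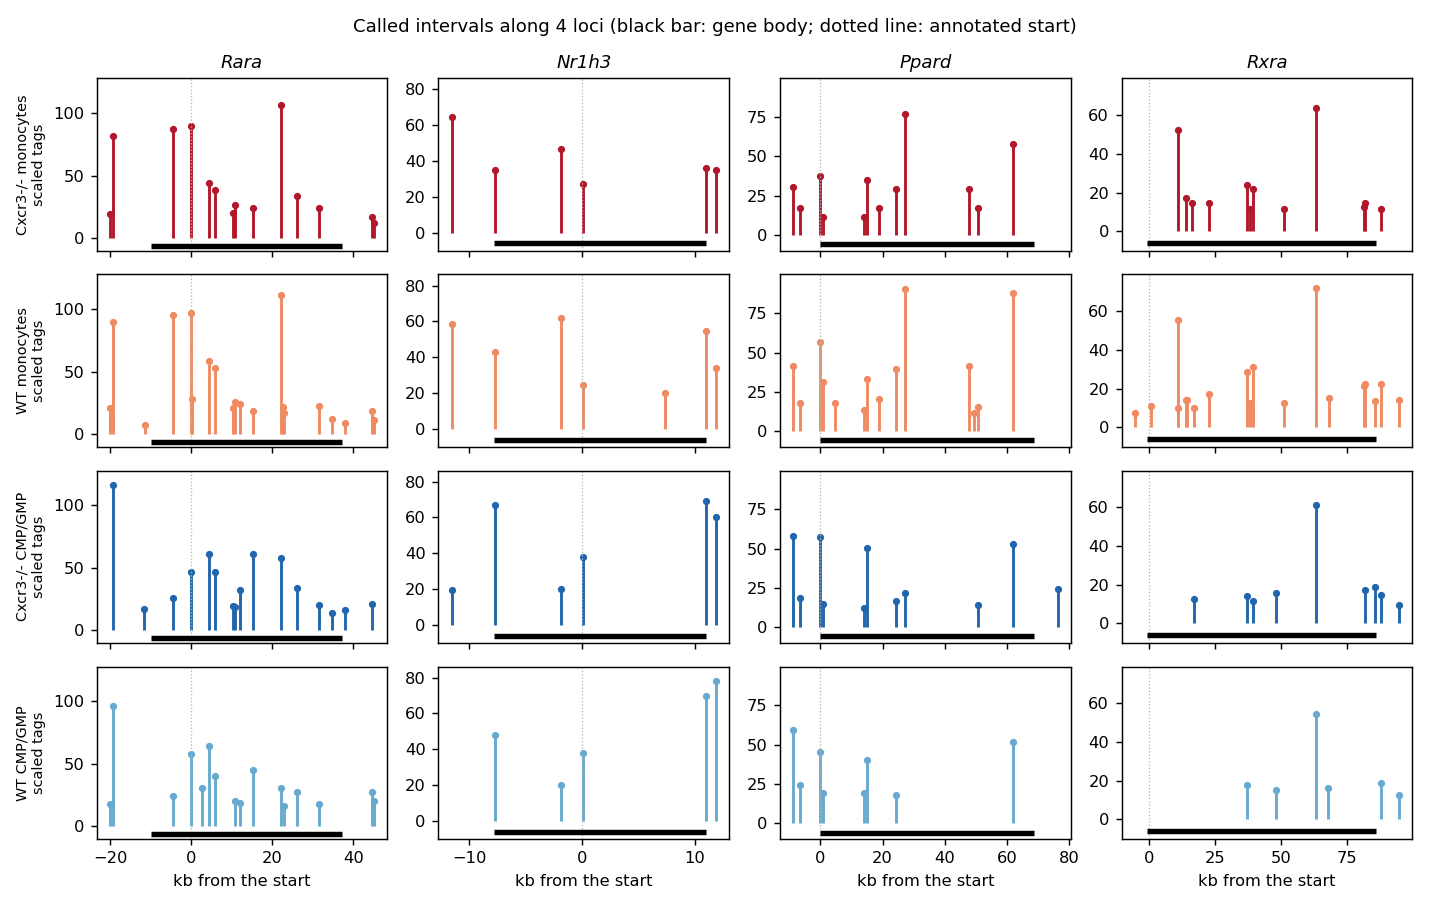
Called intervals along Rara, Nr1h3, Ppard and Rxra (columns) in the 4 libraries (rows): the x axis is the distance in kb from an annotated start in the direction of the gene, and the y axis is the scaled summit pileup in tags, on 1 scale per gene. The tall Rara and Nr1h3 lines just before the start, the Ppard line near 27 kb and the Rxra line near 11 kb are tall in both monocyte rows and short or missing in both CMP/GMP rows.

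Among the lipid sensors, the LXR alpha gene Nr1h3 and the PPAR delta gene Ppard had sites past 2-fold higher in monocytes. Nr1h3 encodes the oxysterol receptor that drives cholesterol efflux genes in macrophages, and a body region lies less than 2 kb upstream of a called start. That region, chromosome 2, 91196622 to 91197184, had 41 and 69 tags in Cxcr3-/- and WT monocytes, against 26 and 16 in Cxcr3-/- and WT CMP/GMP. The ratios there were 1.21 (0.47 to 1.98) in Cxcr3-/- and 1.62 (0.82 to 2.50) in WT. The start region, chromosome 2, 91194641 to 91195253, less than 2 kb away, had 24 and 27 tags in Cxcr3-/- and WT monocytes, against 49 and 30 in Cxcr3-/- and WT CMP/GMP, and its Cxcr3-/- ratio of −0.48 (−1.25 to 0.26) includes 0. At the far end of the locus, in the neighbour Acp2, chromosome 2, 91206308 to 91206937 had 57 tags in Cxcr3-/- monocytes and 65 in WT monocytes, against 25 in Cxcr3-/- CMP/GMP and no call in WT CMP/GMP, with a Cxcr3-/- ratio of 1.74 (1.04 to 2.48). On the other side, at the neighbour Madd, chromosome 2, 91182761 to 91183525 was lower in monocytes, with 31 and 38 tags in Cxcr3-/- and WT monocytes, against 78 and 62 in Cxcr3-/- and WT CMP/GMP. Its ratios were −0.78 (−1.43 to −0.16) and −1.20 (−1.82 to −0.59).

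Ppard encodes a fatty acid receptor expressed in most tissues. Its region chromosome 17, 28259850 to 28260426, about 27 kb into the gene, had 68 tags in Cxcr3-/- monocytes and 101 in WT monocytes, against 28 in Cxcr3-/- CMP/GMP and no call in WT CMP/GMP. The Cxcr3-/- ratio of 1.83 (1.18 to 2.52) was the highest of all receptor regions. Ppard had 2 weaker monocyte-only regions (15 and 23 tags in Cxcr3-/- and WT monocytes, and 26 and 46 tags in Cxcr3-/- and WT monocytes). Its start had 33 and 63 tags in Cxcr3-/- and WT monocytes, against 74 and 36 in Cxcr3-/- and WT CMP/GMP, and the ratios there were −0.61 in Cxcr3-/-, with an upper bound just under 0, and 0.31 (−0.30 to 0.95) in WT. The flanking region at Def6, chromosome 17, 28223699 to 28224449, had 27 and 46 tags in Cxcr3-/- and WT monocytes, against 75 and 47 in Cxcr3-/- and WT CMP/GMP. It was lower in monocytes in both genotypes, with a WT ratio of −0.52 (−1.14 to 0.09) that turned positive after scaling by background tags, which adds 0.99 to every WT ratio.

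Ppara, the PPAR alpha gene of fatty acid oxidation, had fewer tags in monocytes at its start. Its start region, chromosome 15, 85735110 to 85735838, had 10 and 10 tags in Cxcr3-/- and WT monocytes, against 44 and 25 in Cxcr3-/- and WT CMP/GMP. The mean pileup is under the 30-tag minimum between cell types. Without that minimum the ratios were −1.58 (−2.74 to −0.57) in Cxcr3-/- and −1.81 (−3.04 to −0.71) in WT. Scaling by background tags adds 0.44 in Cxcr3-/- and 0.99 in WT, which leaves the WT ratio negative and short of 2-fold. Without the minimum 31 receptor regions were past 2-fold lower in WT, against 5 with it. The 10 tags lie near the 9 and 7 tags that mark the lowest 5% of calls in Cxcr3-/- and WT monocytes. Both monocyte libraries had a call here, at a lower level than in both CMP/GMP libraries.

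Pparg, the PPAR gamma gene of fat cells and alveolar macrophages, is known for alternative first exons. Its first start had 26 and 25 tags in Cxcr3-/- and WT monocytes, against 35 and 16 in Cxcr3-/- and WT CMP/GMP, with a Cxcr3-/- ratio of 0.12 (−0.67 to 0.90). The window of the second annotated start, whose first base is 115362349, was not called in any library. The internal start was called in CMP/GMP only, at chromosome 6, 115421753 to 115421904, with 19 and 15 tags in Cxcr3-/- and WT CMP/GMP. At equal accessibility the monocyte libraries would have had 14.8 and 18.8 tags in Cxcr3-/- and WT. That is above the 9 and 7 tags that mark their lowest 5%, which does not ensure a call. Deeper in the body, chromosome 6, 115480004 to 115480647 had 33 and 52 tags in Cxcr3-/- and WT monocytes, against 34 and 18 in Cxcr3-/- and WT CMP/GMP. The WT ratio was 1.04 (0.24 to 1.90), and the Cxcr3-/- ratio of 0.51 (−0.23 to 1.24) includes 0. Pparg also had a monocyte-only region with 11 and 21 tags in Cxcr3-/- and WT monocytes.

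Nr1h2, the LXR beta gene, is expressed in most cells. Its start carried 2 intervals, with 22 and 41 tags in Cxcr3-/- and WT monocytes, against 64 and 39 in Cxcr3-/- and WT CMP/GMP in one. The other had 26 and 55 tags in Cxcr3-/- and WT monocytes, against 53 and 40 in Cxcr3-/- and WT CMP/GMP. The flanking region at Pold1 had ratios of −0.84 (−1.22 to −0.48) in Cxcr3-/- and −0.41 (−0.81 to −0.01) in WT, and the WT ratio of all 3 regions became positive after scaling by background tags. Nr1h4 had no called start but a monocyte-only body region with 49 and 45 tags in Cxcr3-/- and WT monocytes. Another body region, chromosome 10, 89461872 to 89462342, had 35 and 36 tags in Cxcr3-/- and WT monocytes, against 68 and 63 in Cxcr3-/- and WT CMP/GMP. Its ratios were −0.41 (−1.04 to 0.20) (0.04 after scaling by background tags) and −1.30 (−1.93 to −0.69). Nr1i2, the PXR gene of drug metabolism, had 1 monocyte-only region (11 and 16 tags in Cxcr3-/- and WT monocytes) and 6 tags near its start in WT monocytes alone. Nr1i3 had no interval of its own in more than 1 library beyond the region at Apoa2.

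The Rev-erb and Ror receptors bind as part of the circadian clock, Rev-erbs as repressors and Rors as activators. At Nr1d2 the body region chromosome 14, 18233916 to 18234283, about 5 kb from the start, had 71 and 79 tags in Cxcr3-/- and WT monocytes, against 34 and 28 in Cxcr3-/- and WT CMP/GMP. The ratios were 1.61 (1.01 to 2.25) in Cxcr3-/- and 1.00 (0.37 to 1.68) in WT, next to the start described above. Nr1d1, the Rev-erb alpha gene, also had a monocyte-higher site away from its start. This flanking region, chromosome 11, 98783261 to 98783715, had 48 and 82 tags in Cxcr3-/- and WT monocytes, against 39 and 21 in Cxcr3-/- and WT CMP/GMP. Its ratios were 0.85 in Cxcr3-/-, with an interval above 0, and 1.47 (0.77 to 2.24) in WT. The start had 32 and 67 tags in Cxcr3-/- and WT monocytes, against 60 and 35 in Cxcr3-/- and WT CMP/GMP, with ratios of −0.35 (−1.02 to 0.29) and 0.44 (−0.17 to 1.08). Nr1d2 had 1 monocyte-only region with 14 and 14 tags in Cxcr3-/- and WT monocytes. Rora, of 734843 bp, held 36 regions, the most of any receptor gene, without a call at its annotated start. Its body had 2 monocyte-only regions (12 and 12 tags in Cxcr3-/- and WT monocytes, and 20 and 34 tags in Cxcr3-/- and WT monocytes) and the strongest CMP/GMP-only region of the receptors, chromosome 9, 68956358 to 68956837, with 46 and 28 tags in Cxcr3-/- and WT CMP/GMP. Its tallest region, chromosome 9, 69289567 to 69290187, had 50 and 65 tags in Cxcr3-/- and WT monocytes, against 65 and 30 in Cxcr3-/- and WT CMP/GMP. Its ratios were 0.17 (−0.39 to 0.73) and 0.62 (−0.02 to 1.30). Rorb, of retina and brain, had 10 to 16 tags at its start.

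Among the steroid receptors Esr1, which encodes estrogen receptor alpha, had sites on both sides. Just inside its annotated start, chromosome 10, 4612211 to 4613084 had 22 and 27 tags in Cxcr3-/- and WT monocytes, against 77 and 48 in Cxcr3-/- and WT CMP/GMP. The ratios were −1.25 (−2.01 to −0.56) in Cxcr3-/- and −1.32 (−2.06 to −0.61) in WT. About 9 kb into the gene, chromosome 10, 4620826 to 4621778 had 45 and 55 tags in Cxcr3-/- and WT monocytes, against 31 and 18 in Cxcr3-/- and WT CMP/GMP, with ratios of 1.09 (0.40 to 1.80) and 1.12 (0.33 to 1.97). Between these, and around them, Esr1 held 3 monocyte-only regions (17 and 22 tags in Cxcr3-/- and WT monocytes at the start, and 10 to 18 tags in the others) and 3 CMP/GMP-only regions with 16 to 32 tags. Sites favouring one cell type therefore lay among sites favouring the other near the start of Esr1.

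Nr3c1 encodes the glucocorticoid receptor, which acts in nearly all blood cells. A gene end had 19 and 28 tags in Cxcr3-/- and WT monocytes, against 28 and 21 in Cxcr3-/- and WT CMP/GMP. No promoter window was available for Nr3c1, so a region counted as body here may lie at a start. The strongest body region, chromosome 18, 39489133 to 39491195, had 62 and 66 tags in Cxcr3-/- and WT monocytes, against 135 and 76 in Cxcr3-/- and WT CMP/GMP. The ratios were −0.57 (−1.03 to −0.13) in Cxcr3-/- and −0.70 (−1.19 to −0.20) in WT, the WT ratio turning positive after scaling by background tags. The region chromosome 18, 39416519 to 39417102 had 16 and 17 tags in Cxcr3-/- and WT monocytes, against 54 and 35 in Cxcr3-/- and WT CMP/GMP, with a Cxcr3-/- ratio of −1.20 (−2.11 to −0.38). Nr3c1 had 3 monocyte-only regions with 12 to 32 tags and 1 CMP/GMP-only flanking region with 32 and 15 tags in Cxcr3-/- and WT CMP/GMP. Nr3c2 had a body region near its start with 26 and 28 tags in Cxcr3-/- and WT monocytes, against 69 and 37 in Cxcr3-/- and WT CMP/GMP. Its ratios were −0.86 (−1.57 to −0.19) and −0.90 (−1.66 to −0.15) (positive in WT after scaling by background tags). Nr3c2 also had 1 monocyte-only region with 10 and 13 tags in Cxcr3-/- and WT monocytes. Pgr, the progesterone receptor gene, was called near its start in CMP/GMP only, with 19 and 23 tags in Cxcr3-/- and WT CMP/GMP, against the 19.3 and 24.4 tags that equal accessibility would give in Cxcr3-/- and WT monocytes. Esr2, which encodes estrogen receptor beta, had 10 to 29 tags at the only interval near its start called in all 4 libraries. In the flank of Esrra, within Prdx5, a monocyte-only region (18 and 24 tags in Cxcr3-/- and WT monocytes) lay less than 1 kb from a CMP/GMP-only one (31 and 33 tags in Cxcr3-/- and WT CMP/GMP).

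Among the orphan receptors, Nr6a1, the germ cell nuclear factor gene, had 18 and 24 tags in Cxcr3-/- and WT monocytes, against 78 and 40 in Cxcr3-/- and WT CMP/GMP at chromosome 2, 38823893 to 38824221, with ratios of −1.56 (−2.39 to −0.81) in Cxcr3-/- and −1.23 (−2.02 to −0.46) in WT. Its start had 55 and 63 tags in Cxcr3-/- and WT monocytes, against 114 and 88 in Cxcr3-/- and WT CMP/GMP, with ratios of −0.50 (−0.99 to −0.02) and −0.98 (−1.47 to −0.49), the WT ratio turning positive after scaling by background tags. Both regions were lower in monocytes of both genotypes. Nr6a1 shares a monocyte-only flanking region (18 and 35 tags in Cxcr3-/- and WT monocytes) with Nr5a1, the steroidogenic factor gene, and has another with 10 and 15 tags in Cxcr3-/- and WT monocytes. Nr2f6 (Ear2, described in myeloid leukaemia cells) had, at its start, 32 and 40 tags in Cxcr3-/- and WT monocytes, against 45 and 15 in Cxcr3-/- and WT CMP/GMP. It also had a monocyte-only region in the neighbour Use1 with 29 and 43 tags in Cxcr3-/- and WT monocytes. Nr2e3 had one body region with 17 and 11 tags in Cxcr3-/- and WT monocytes, against 70 and 41 in Cxcr3-/- and WT CMP/GMP, with a Cxcr3-/- ratio of −1.49 (−2.35 to −0.71). Nr2f1 had, at its start, 13 and 15 tags in Cxcr3-/- and WT monocytes, against 24 and 16 in Cxcr3-/- and WT CMP/GMP. It also had a CMP/GMP-only flanking region with 25 and 19 tags in Cxcr3-/- and WT CMP/GMP. Nr2c1 (TR2) had, at its start, 45 and 47 tags in Cxcr3-/- and WT monocytes, against 53 and 30 in Cxcr3-/- and WT CMP/GMP. Nr0b2 (SHP, the bile acid-induced corepressor) had 20 and 31 tags in Cxcr3-/- and WT monocytes, against 33 and 18 in Cxcr3-/- and WT CMP/GMP. The remaining orphan loci had few calls: Nr2f2 had 1 region in all 4 libraries with 15 to 26 tags, Nr5a2 (LRH-1) 1 with 8 to 19 tags, and Nr2e1 none in all 4.

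In all, 33 of the 358 receptor regions were called only in monocytes of both genotypes, which is 9.22% (exact 95% interval 6.43 to 12.7%) against a background of 10.2% of all regions. The same rule gave 16 regions called only in CMP/GMP of both genotypes, 4.47% (2.58 to 7.16%) against a background of 6.28%. With absence judged by the equal-length lists it gave 30, which is 8.38% against a background of 9.71%. A further 138 (38.5%) were called in all 4 libraries, against a background of 37%. These shares lie near the background. The monocyte-only regions comprised 28 in bodies, 4 in flanks and 1 at a start; the share in bodies was 84.8%, beside 78.3% of such regions over the loci of all protein-coding genes. Of the CMP/GMP-only regions 11 were in bodies, 3 in flanks and 2 at starts, and the share in bodies was 68.8%, beside 70.5%.

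**Figure D4:**
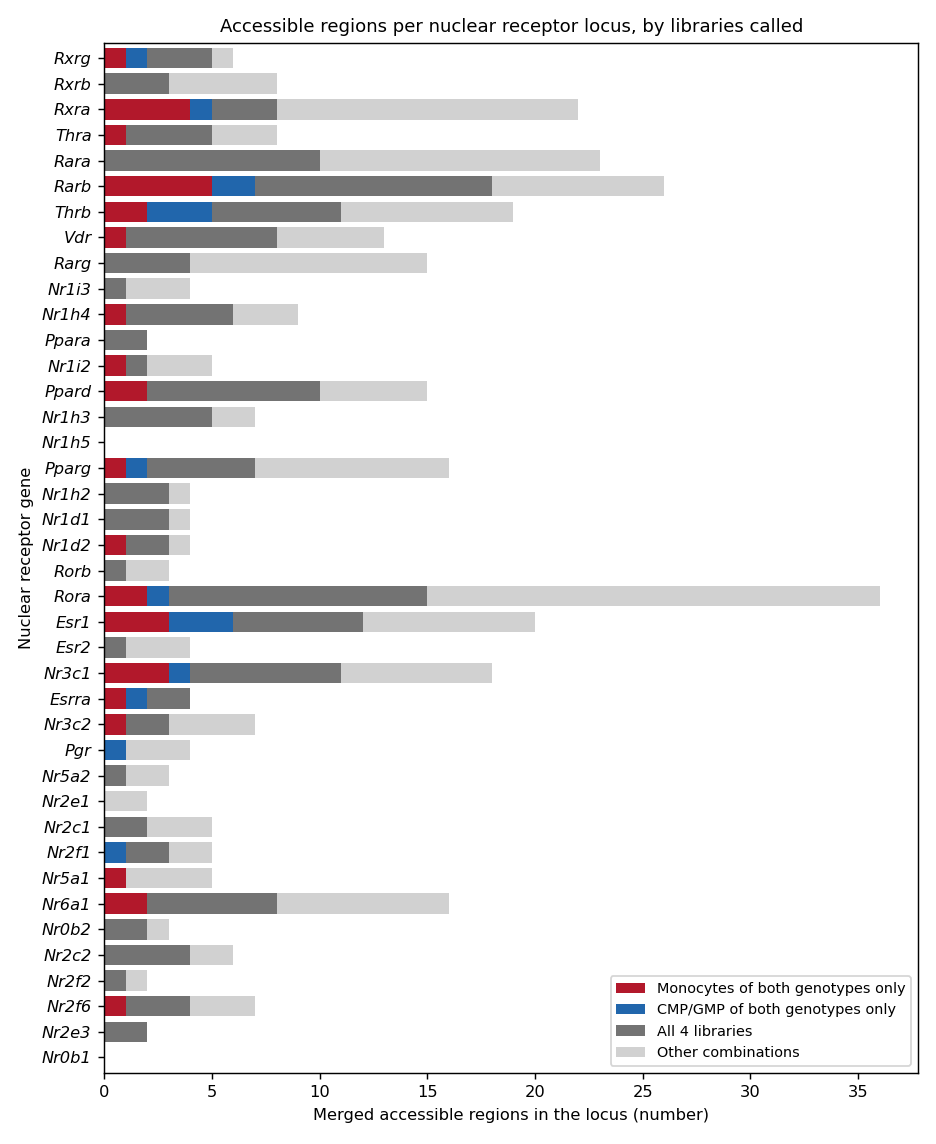
Number of merged accessible regions in each nuclear receptor locus (x axis), coloured by the libraries in which they were called. Rarb, with 5, has the most regions called only in monocytes, Esr1 and Thrb, with 3 each, the most called only in CMP/GMP, and Nr1h5 and Nr0b1 have no bar.

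How the libraries are scaled moves the cell-type ratios as a whole. Scaling by background tags added 0.44 to each Cxcr3-/- ratio and 0.99 to each WT ratio, so that the median of all regions stood at 0.34 and 1.02. Of all regions past 2-fold, 52.8% were higher in Cxcr3-/- monocytes as reported, 84.1% with background scaling and 63.8% with scaling by the median of ratios, and in WT 61.9%, 98.0% and 71.9%. The receptor counts with background scaling were 12 higher and 3 lower in Cxcr3-/- and 33 higher and 0 lower in WT. The 5 regions past 2-fold higher in both genotypes kept their sign and stayed past 2-fold under each scaling, and both regions past 2-fold lower kept their sign. Of the 9 regions past 2-fold lower in Cxcr3-/-, the 3 that stayed so with background scaling were in Rarb (−1.61 at the region starting at 17081930), Nr6a1 (−1.12) and Nr2e3 (−1.04). The other 6, in Rara, Rarb, Vdr, Nr3c1, Rxrb and Esr1, then lay between −0.91 and −0.66, and no region stayed past 2-fold lower in WT.

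The question of the study is the loss of Cxcr3, and the second comparison set Cxcr3-/- against WT within each cell type. In monocytes 0 of 78 receptor regions were past 2-fold higher and 0 past 2-fold lower, against a background of 0.264% and 0.401%. In CMP/GMP 0 of 77 were past 2-fold in either direction, against a background of 0.139% higher and 0.136% lower. A count of 0 at such a background says little about receptor genes. The ratios ranged from −0.78 to 0.87 in monocytes and from −0.98 to 0.94 in CMP/GMP, with medians of −0.08 and 0.07, beside 0.00 and 0.05 over all regions.

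Some ratios stood off 0 by more than the counting error, 6 of 78 in monocytes and 7 of 77 in CMP/GMP, without correction for the number looked at. These are 7.69% and 9.09%, against a background of 10.5% of all regions in monocytes and 4.56% in CMP/GMP. In monocytes the Rarb body region chromosome 14, 16563954 to 16564261 had 39 tags in Cxcr3-/- and 27 in WT, a ratio of 0.87 (0.13 to 1.64). The Nr3c2 start had 170 and 161 tags, a ratio of 0.42 (0.10 to 0.74). Lower in Cxcr3-/- monocytes were the Nr1d1 start (32 tags in Cxcr3-/-, 67 in WT, ratio −0.73 (−1.38 to −0.10)) and an interval of the Nr1h2 start (26 and 55 tags, ratio −0.74 (−1.47 to −0.04)). So were the region at Use1 beside Nr2f6 (41 and 89 tags, −0.78 (−1.35 to −0.23)) and the Ppard body region starting at 28294433 (51 and 98 tags, −0.60 (−1.12 to −0.10)). In CMP/GMP the higher ones were the Rara body region starting at 98959482 (75 tags in Cxcr3-/-, 24 in WT, ratio 0.94 (0.26 to 1.67)) and the Nr2f6 start (45 and 15 tags, ratio 0.88 (0.01 to 1.83)). Also higher were the region at Pold1 (0.44 (0.10 to 0.80)) and the region at Apoa2 (0.33 (0.02 to 0.65)). The lower ones were the Rxrg region starting at 167637047 (33 and 40 tags, −0.98 (−1.69 to −0.28)), the CMP/GMP-only region in Prdx5 (31 and 33 tags, −0.79 (−1.55 to −0.04)) and the Nr1h4 region starting at 89461872 (68 and 63 tags, −0.59 (−1.11 to −0.08)). No region stood off 0 in both cell types.

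The genotype ratio moved with how gene-dense the surroundings of a region are. In monocytes the receptor median was 0.06 where 0 to 5 protein-coding genes lay within a window of 1 Mb and −0.37 where 21 to 72 did, beside 0.19 and −0.19 over all regions. In CMP/GMP the receptor medians of these classes were −0.08 and 0.18, beside −0.03 and 0.11. The gene-dense class held 39 of the 78 monocyte and 36 of the 77 CMP/GMP ratios, among them all 4 regions lower in Cxcr3-/- monocytes, at Nr1d1, Nr1h2, Nr2f6 and Ppard. The part of gene density in these ratios was not tested. The median over all regions of this class, −0.19, lies inside the intervals given above at Nr1d1, Nr1h2 and Ppard and outside that at Nr2f6. The 2 regions higher in Cxcr3-/- monocytes, at Rarb and Nr3c2, lay in the class with 0 to 5 genes. Its median over all regions, 0.19, lies inside both of their intervals. With the class median subtracted, 0 receptor regions were past 2-fold in monocytes, and 0 higher and 1 lower in CMP/GMP. With 1 library per group, a gene density trend of a library and one of the genotype cannot be told apart. Background scaling subtracted 0.37 from each monocyte ratio and added 0.18 to each CMP/GMP ratio, leaving 0 receptor regions past 2-fold higher and 3 lower in monocytes and 2 higher and 0 lower in CMP/GMP. Of all regions past 2-fold, 39.7% were higher in Cxcr3-/- monocytes and 50.6% in Cxcr3-/- CMP/GMP as reported, 0.238% and 96.6% with background scaling, and 40.4% and 69.8% with factors from regions away from gene ends.

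**Figure D5:**
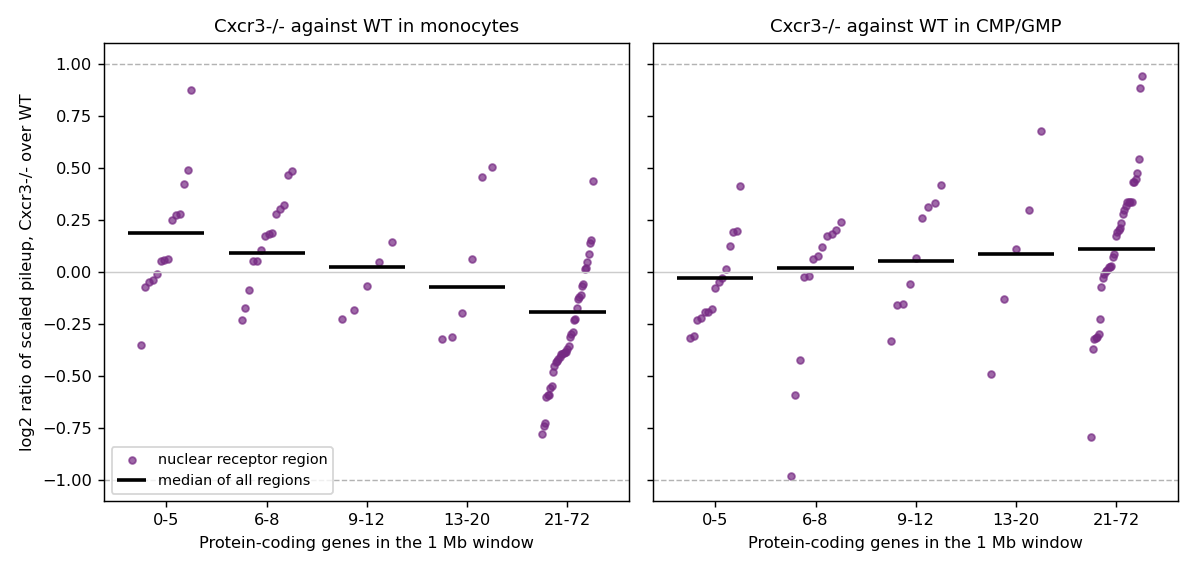
Log2 ratio of scaled summit pileup, Cxcr3-/- over WT, of nuclear receptor regions (points) in monocytes (left panel) and CMP/GMP (right panel), grouped by gene density (protein-coding genes within a window of 1 Mb); black lines are medians over all regions of the class and dashed lines mark 2-fold. No point lies past 2-fold, and in monocytes the points of the class with 21 to 72 genes lie mostly below 0.

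The genes that work with these receptors were described by the mean log2 ratio over the measured regions of each locus, monocytes over CMP/GMP, and counted where it passed 0.5 in the same direction in both genotypes. Over all 13317 protein-coding genes measured in both genotypes 808 were higher (6.07%) and 1221 lower (9.17%), and of 27 measured receptor genes 1 was higher and 2 lower. Coregulators, which carry the repressing or activating enzymes to a receptor, had 2 of 23 higher and 3 lower. Among the higher ones was the coactivator gene Ncoa3 (0.64 in Cxcr3-/-, 0.95 in WT). The lower ones were Ppargc1a, the PGC-1 alpha coactivator gene (−1.27 and −1.89), Kdm1a, a histone demethylase gene (−1.26 and −0.63), and Hdac3, the deacetylase of the corepressor complex (−0.80 and −0.62). The list medians of −0.43 in Cxcr3-/- and 0.03 in WT stand beside −0.20 and −0.01 over all genes.

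Known LXR and PPAR targets had 1 of 17 higher and 0 lower. It was Cd36, the scavenger receptor and fatty acid transporter gene, at 1.39 in Cxcr3-/- and 0.82 in WT, with 4 monocyte-only regions. The next targets by the size of their smaller ratio were the desaturase gene Scd2 (−0.49 and −0.45) and the oxidised LDL receptor gene Olr1 (0.46 and 0.41). Of 11 retinoid and vitamin D genes 1 was higher, the retinaldehyde reductase gene Dhrs3 (0.93 and 0.74), and 1 lower, the vitamin D-degrading Cyp24a1 (−0.75 and −1.52), with Cyp26b1, which degrades retinoic acid, at −0.70 and −0.46. None of 9 glucocorticoid targets passed 0.5 in both genotypes; Zbtb16 stood at −0.51 and −0.34, Fkbp5 at −0.64 and −0.19 and Sgk1 at 0.29 and 0.07. Of 5 sterol, steroid and thyroid hormone ligand genes 0 were higher and 2 lower. These were Dio2, which activates thyroid hormone (−0.91 and −2.12), and Hsd11b1, which regenerates glucocorticoid (−0.73 and −0.78). Cyp46a1 stood at −0.50 and −0.42. Of 15 clock genes 2 were higher, the repressor genes Bhlhe41 (1.26 and 1.85) and Bhlhe40 (0.66 and 0.58), and 0 lower, with Per2 at −1.07 and −0.49. Receptors outside the naming rule had 1 measured gene of 6, the hepatocyte nuclear factor gene Hnf4a, at 0.29 and −0.52. Scaling by background tags, which adds 0.99 to WT values, turned the WT value of Kdm1a, Hdac3, Scd2, Cyp26b1, Zbtb16, Fkbp5, Hsd11b1, Cyp46a1, Per2 and Hnf4a positive, while Ppargc1a, Cyp24a1 and Dio2 stayed negative in both genotypes.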

How the data were processed

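Omni-ATAC-seq libraries of 4 groups, 1 per group, were read as the authors deposited them, as narrowPeak lists of called intervals. Sequencing was paired-end with 75 bp reads on a NextSeq 500 and run in duplicate, per the labels, and whether the duplicates were pooled is not stated. Trim Galore, Bowtie2, SAMtools and the build mm10 are named, per the submitters' processing notes; the peak caller and its settings are not given in the sources used here. Each interval of the deposited lists holds a score (the whole part of 10 times the −log10 q), a fold over expected background (a ratio), the −log10 of the p-value and of the q-value, and the summit offset. Called intervals exclude everything below the authors' threshold, so a missing interval is not a measured 0.

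The summit pileup was recovered from the deposited fold and −log10 p-value as the Poisson count that gives both with 1 added tag; it was whole within 0.001 for all but 3 intervals in each library. Intervals of the 4 lists sharing at least 1 base were merged. Library factors are the median pileup over the 44591 regions called in all 4 libraries, relative to their geometric mean. Scaling by background tags used each library's most frequent background level, recovered with the pileups and divided by a tag extension length. That length was estimated from the same lists as 111, 100, 125 and 118 bp in Cxcr3-/- monocytes, WT monocytes, Cxcr3-/- CMP/GMP and WT CMP/GMP. Reads outside the called intervals were not counted. A log2 ratio was taken where both libraries had a call and a mean pileup of at least 30 tags, with an exact (Clopper-Pearson) 95% binomial interval, and past 2-fold is the call rule. Tags are not corrected for PCR copies here, and intervals cover counting error only. Genes, promoter windows and starts came from RefSeq (GRCm38.p6), and the intervals' chromosome names and positions were used on the same build. Pileup recovery and the 2-fold rule were run on simulated data made with the same Poisson form, which does not test that form. The other steps were not simulated. All steps were run with Python 3.11.15, numpy 2.4.6, pandas 2.3.3, scipy 1.17.1 and matplotlib 3.10.9.

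All 40 genes are accounted for. Given in full are genes with a region called in one cell type only, the 10 regions with the largest ratio in each direction by the smaller of both genotypes' ratios, the 10 with the highest mean scaled pileup, regions past 2-fold between genotypes, genes with no interval, and 12 receptors with described roles in myeloid cells (Rara, Rxra, Pparg, Ppard, Vdr, Nr1h2, Nr1h3, Nr1d1, Nr1d2, Nr2f6, Nr3c1 and Rora), with up to 3 genes of each pathway list by the same ranking; 1 such gene is not reported here. Regions named outside this rule, such as neighbours of a named region, those with a ratio in 1 genotype and those whose genotype interval leaves out 0, were picked with their values in view. The members and lists were chosen with earlier results of these data known. Alternatives tried were scaling by background tags or by regions away from gene ends, other pileup minimums, and other rules for presence, and, chosen after seeing the data, scaling by the median of ratios and subtraction of the gene density class median.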

Additional observations from a re-analysis of the deposited data

How the results depend on the processing

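Of 122 alternative values 98 stayed within 1.5 times the reported count and 24 did not. No paired analysis was possible because each group has 1 library and the labels give no replicate numbers, and for the same reason no library could be left out of a group. A minimum mean of 60 tags left receptor regions past 2-fold between cell types at 0 higher and 1 lower in Cxcr3-/- and 2 higher and 0 lower in WT, with fewer regions measured. With no minimum, 31 were lower in WT, and between genotypes in monocytes 3 were higher and 1 lower. Scaling by background tags gave 3 lower in Cxcr3-/-, 33 higher and 0 lower in WT, 3 lower in Cxcr3-/- monocytes than in WT monocytes, and 2 higher in Cxcr3-/- CMP/GMP than in WT CMP/GMP. It also gave 5 coregulators higher and 1 lower, 6 LXR and PPAR targets higher and 2 glucocorticoid targets higher. Of the retinoid and vitamin D genes it gave 5 higher and 0 lower. It gave 1 higher and 0 lower of the sterol, steroid and thyroid hormone ligand genes, and 5 clock genes higher. Scaling by the median of ratios, added after seeing the data, gave 3 LXR and PPAR targets higher, and subtracting the gene density class median, added likewise, gave 1 region lower in Cxcr3-/- CMP/GMP. Judging absence by equal-length lists gave 30 receptor regions called only in CMP/GMP. The cause of these moves was not tested beyond what each setting changes by its construction.

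Depth limits the weak sites. The lowest 5% of called intervals have at most 9 and 7 tags in Cxcr3-/- and WT monocytes. In Cxcr3-/- and WT CMP/GMP they have at most 13 and 10. A site at or below such a level can lack a call without being closed, and so can a site above it.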
